A study of Homo sapiens with 6 samples.

Results

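Chromosome 6 was described in DKO1 and in HCT116 from Hi-C maps, which record the stretches of DNA that lie close together in the nucleus. HCT116 is a line established from a human colorectal cancer, and DKO1 is the same line with the DNA methyltransferase genes DNMT1 and DNMT3B knocked out, so that both groups share the HCT116 background. The series holds 3 DKO1 and 3 HCT116 libraries, but the labels point every replicate of a line to 1 shared set of files, which was taken as pooled, so each line has 1 compartment score per 20 kb bin and 1 list of domains, with no replicate error and no test between the lines. DKO1 is 1 derived line, and the knockouts cannot be told apart from any other difference between the 2 lines. All bins with a score in both tracks and all listed domains on chromosome 6 were taken: 8376 of 140474 joined bins, 84 of 1823 DKO1 domains and 224 of 4289 HCT116 domains. Chromosome 6 was chosen by measured values of these maps, its compartment shares, their change along the arms and its correlation between the lines, so that its place among the autosomes and among the windows is a description with no test.

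Chromosomes fold into an A compartment, which is gene-rich, open and replicated early, and a B compartment, which is gene-poor, closed, replicated late and often attached to the nuclear lamina. In cancer cells DNA methylation is typically lost over long, late-replicating stretches that overlap compartment B, and DKO1 is known for having lost most of the methylation that remains in HCT116. Within compartments, topologically associating domains are stretches that contact themselves more than their surroundings, and many of their boundaries are bound by CTCF and cohesin. Chromosome 6 is submetacentric. Its short arm, 6p, is known for the histone gene cluster at 6p22, which supplies most of the replication-dependent histones, and for the major histocompatibility region at 6p21, which encodes the HLA antigen-presenting proteins. Its long arm, 6q, holds long gene-poor stretches.

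The compartment score is the first principal component (PC1) of the interaction map. On chromosome 6 it was scaled in each line to a mean of 0 with an SD of 1, so values are in SD of that line and the chromosome as a whole cannot shift. A bin with a positive PC1 was called A and one with a negative PC1 was called B. Positions are on hg19, and the largest gap between bins, from 58820001 to 61900000, was taken as the centromere, which left 2929 bins on 6p and 5447 on 6q.

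Chromosome 6 had nearly the same amount of compartment A in both lines, at 50.3% of bins in DKO1 and 49.98% in HCT116. Most bins had the same compartment in both lines, and those that differed did so in both directions in similar numbers. The 711 bins that were A in DKO1 only made up 8.49% of the chromosome (14.22 Mb), against 4.12% of bins on the other 21 autosomes. The 682 bins that were A in HCT116 only made up 8.14% (13.64 Mb), against 8.97% on the other autosomes. The share that was A in DKO1 only was higher on chromosome 13 alone, at 12.6%, and the median over the other autosomes was 3.70%. The share that was A in HCT116 only was in the middle of the autosomes, with 10 of the others higher. In either direction the compartment differed in 16.6% of bins on chromosome 6 and in 13.1% of bins elsewhere.

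**Figure D1:**
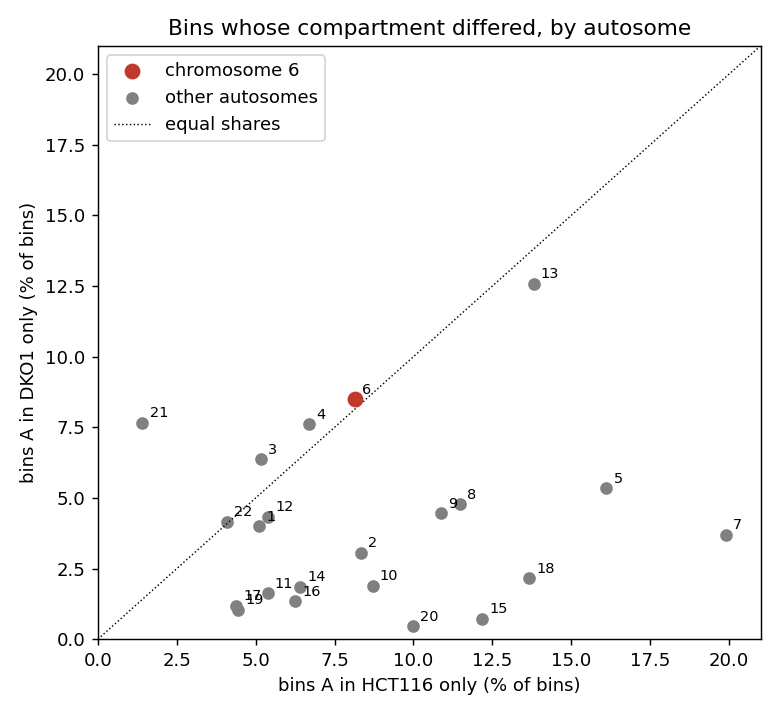
Share of 20 kb bins that were A in DKO1 only (vertical axis, % of the chromosome's bins) against the share that were A in HCT116 only (horizontal axis, %), 1 point per autosome, with a dotted line where both are equal. Chromosome 6 lies close to the line at 8.49% and 8.14%, while most other autosomes lie below it.

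Where the score was at least 0.5 in size in both DKO1 and HCT116, bins differed mainly towards A in DKO1. Of these 4474 bins, 98 (2.19%) were A in DKO1 only, against 0.356% on the other autosomes. The opposite was found in 26 bins (0.581%, against 0.479% elsewhere). Of the 98 bins, 46 lay in the window from 165 to 170 Mb near the end of 6q and 12 in the window from 35 to 40 Mb on 6p. Of the 26 bins, 17 lay between 125 and 130 Mb on 6q, and none on 6p. The windows at 165, 35 and 125 Mb hold 249, 250 and 250 of the 8376 bins of the chromosome. How many of their bins have scores of this size is not given here, so the counts are not shares of such bins.

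The tracks of the lines correlated less on chromosome 6 than on most autosomes. Pearson's r across its bins was 0.76, against a median of 0.92 over the others, and only chromosome 13, at 0.62, was lower. The points of this correlation are neighbouring bins of 1 map, so r is a description and has no p-value. The sign of PC1 changed more often in DKO1, with 359 intervals of 1 sign against 303 in HCT116, and the median interval was 140 kb in DKO1 and 120 kb in HCT116. The mean step between neighbouring bins was 1.14 times as large in DKO1 as in HCT116 (median of the other autosomes 1.16), and its part in the number of intervals was not tested.

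The arms differed in opposite directions. On 6p, 64.9% of bins were A in DKO1 and 56.3% in HCT116, with 12.1% A in DKO1 only and 3.52% A in HCT116 only. On 6q, 42.5% of bins were A in DKO1 and 46.6% in HCT116, with 6.55% A in DKO1 only and 10.6% A in HCT116 only. Mean PC1 on 6p was 0.36 in DKO1 and 0.12 in HCT116, and on 6q it was -0.19 in DKO1 and -0.06 in HCT116. DKO1 was therefore higher by 0.24 SD on 6p and lower on 6q, where the difference was -0.13 SD, and the scaling to a mean of 0 ties these values to each other. When each arm's own mean was subtracted, the difference in the share of A on 6p was -2.53 percentage points in place of 8.57. This step removes the mean difference of the arm by construction, so it cannot show whether the direction holds within 6p. The direction on 6p is therefore given relative to the whole chromosome only. When only scores of at least 0.5 in size in DKO1 and in HCT116 were kept, the difference on 6q was 1.28 percentage points in place of -4.08.

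**Figure D2:**
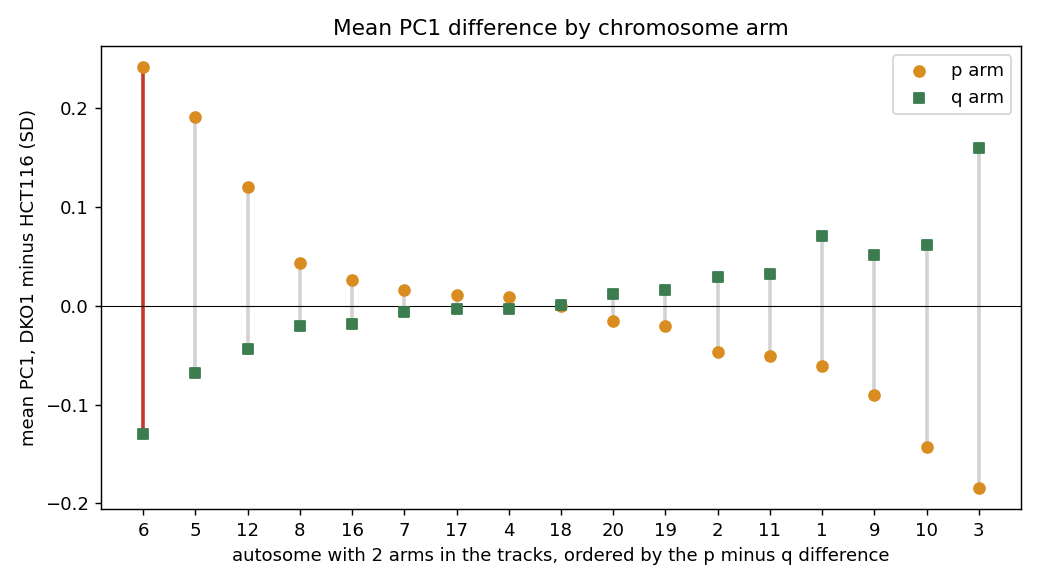
Mean PC1 in DKO1 minus HCT116 (SD units) on the p arm (circles) and the q arm (squares) of the 17 autosomes that are not acrocentric, ordered by the difference between the arms, with the line between the arms of chromosome 6 in red. Chromosome 6 is at the left end, with 0.24 on its p arm and -0.13 on its q arm.

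In mean PC1 the contrast between the arms was the widest of the 17 non-acrocentric autosomes, and in the share of A it was 12.6 percentage points, with chromosome 3 larger in size (-15.4). The p arm minus the q arm was 0.37 SD on chromosome 6, while the other 16 ranged from -0.34 on chromosome 3 to 0.26 on chromosome 5. Mean PC1 was also taken over the 5 Mb at each end of an arm. At the outer end of 6q the difference was opposite in sign to that of the whole arm. The last 5 Mb of 6q had a mean PC1 of 0.76 in DKO1 and -0.38 in HCT116, a difference of 1.15, and the highest of the other q arms was 0.58 on chromosome 11. The first 5 Mb of 6p had means of 0.65 in DKO1 and -0.05 in HCT116, a difference of 0.70, where the highest of the other p arms had 0.69 on chromosome 7. Beside the centromere the sides went apart: the innermost 5 Mb of 6p averaged 0.17 in DKO1 and -0.27 in HCT116, and the innermost 5 Mb of 6q averaged -1.53 in DKO1 and -0.86 in HCT116. The difference of -0.67 on 6q was about that of chromosome 3 (-0.66), the lowest among the others. These stretches of 5 Mb were chosen after the windows had been seen.

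In fixed windows of 5 Mb, counted from position 0 and with at least 100 bins each, PC1 differed over long consecutive stretches. DKO1 was higher in 16 of the 34 windows and lower in 18. From 35 to 60 Mb, over 5 windows of 6p, DKO1 averaged 0.61 and HCT116 averaged 0.19. From 60 to 85 Mb, the next 5 windows across the centromere and along 6q, DKO1 averaged -0.96 and HCT116 averaged -0.40. From 90 to 140 Mb, over 10 windows, DKO1 averaged -0.13 and HCT116 averaged 0.18. From 150 to 170 Mb, over the last 4 windows, DKO1 averaged 0.29 and HCT116 averaged -0.30. The first 25 Mb of 6p were higher in DKO1 (0.05 against -0.21), and only the windows from 25 to 35 Mb were lower in DKO1 on that arm (0.52 against 0.78). The stretches were joined by sign alone and include small differences, such as those at 20 (0.012), 25 (-0.017) and 105 Mb (-0.0097). Between the stretches of 6q, the differences were 0.64 from 85 to 90 Mb, 0.078 from 140 to 145 Mb and -0.32 from 145 to 150 Mb.

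**Figure D3:**
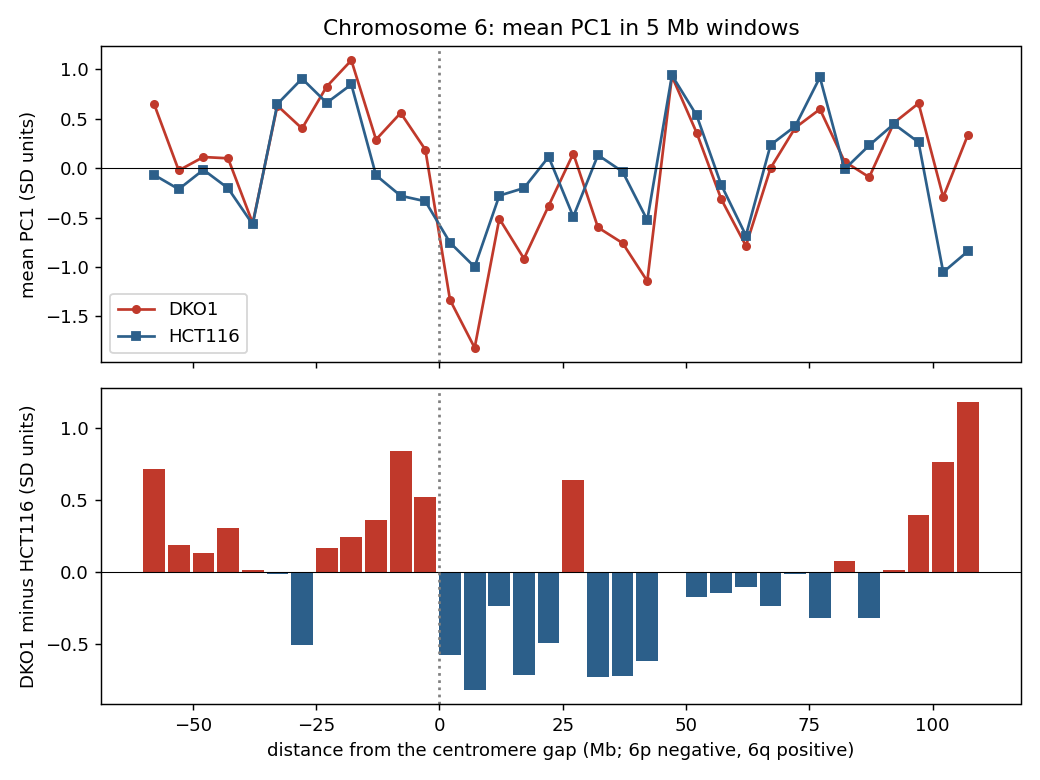
Top, mean PC1 (SD units) of DKO1 (circles) and HCT116 (squares) in 34 windows of 5 Mb along chromosome 6, by distance from the centromere gap in Mb, with 6p at negative values. Bottom, the difference DKO1 minus HCT116 in the same windows, which is mostly positive on 6p, mostly negative on the first part of 6q and positive again at the end of 6q.

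Differences of at least 0.5 SD in window means were found in 6 windows in which DKO1 was higher (17.6%, against 4.34% of the 507 windows of the other autosomes) and in 7 in which it was lower (20.6%, against 5.72%). The SD of the window differences was 0.50 on chromosome 6 and between 0.10 and 0.63 on the others, with a median of 0.23, and chromosome 13 alone was higher. Differences between windows made up 49.4% of the variance of the bin-wise difference (median of the others 31.3%). Within windows the lines followed each other more closely than over the whole chromosome, with a median r of 0.83 on chromosome 6 and 0.89 elsewhere. After a running mean of 10 Mb was subtracted from each track, r over chromosome 6 was 0.81, still above chromosome 13 only, and 7.04% of bins were then A in DKO1 only and 8.93% A in HCT116 only.

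The windows with the most bins of differing compartment lay on both arms. The window from 165 to 170 Mb had 67.5% of its bins in A in DKO1 and 21.7% in HCT116, and all of its 45.8% differing bins were A in DKO1 only. It also had the largest excess of mean PC1 in DKO1, with 0.34 in DKO1 and -0.84 in HCT116. The window from 55 to 60 Mb, next to the centromere on 6p, had 56.0% of bins in A in DKO1 and 26.7% in HCT116, again with all differing bins A in DKO1 only. In the other direction, the window from 80 to 85 Mb had 21.2% of bins in A in DKO1 and 61.2% in HCT116. The window from 125 to 130 Mb had 43.2% in DKO1 and 70.8% in HCT116, and the one from 130 to 135 Mb had nearly equal shares, 76.4% in DKO1 and 74.0% in HCT116, although 29.6% of its bins differed. In these last windows the lines followed each other less closely than in most, with r of 0.45 and 0.36. On a grid moved by 2.5 Mb to 1 side, the differences at 80, 90, 125 and 130 Mb turned positive (0.16, 0.10, 0.31 and 0.085), and those at 5, 25, 35 and 140 Mb changed sign as well.

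A window could also differ strongly in PC1 without a change of compartment. From 65 to 70 Mb on 6q, mean PC1 was -1.82 in DKO1 and -1.0003 in HCT116, the largest decrease of any window, and yet every bin was B in both lines. This window lies in the longest B interval of 6q, which was 6.6 Mb long in each line and ran from 64440001 to 71040000 in DKO1 and from 64480001 to 71080000 in HCT116. The window from 60 to 65 Mb beside it had means of -1.33 in DKO1 and -0.75 in HCT116, with 3.90% of bins differing. From 90 to 95 Mb the means were -0.60 in DKO1 and 0.13 in HCT116, while 8% of bins differed and r was 0.95, and the difference had an SD of 0.51 over the bins. From 95 to 100 Mb they were -0.76 in DKO1 and -0.04 in HCT116, and here 20.7% of bins were A in HCT116 only and none A in DKO1 only.

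The other largest increases in mean PC1 lay on both arms. From 50 to 55 Mb on 6p, mean PC1 was 0.56 in DKO1 and -0.28 in HCT116, with 61.6% of bins in A in DKO1 and 43.2% in HCT116. From 160 to 165 Mb it was -0.29 in DKO1 and -1.05 in HCT116, with 28% of bins in A in DKO1 and 12.4% in HCT116. The other windows with the fewest differing bins were those from 5 to 10 Mb (3.20%), from 110 to 115 Mb (4.4%) and from 155 to 160 Mb (6%), with mean differences of 0.19, -0.18 and 0.39.

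The end of 6q held the longest stretches that were A in DKO1 only. Consecutive bins with the same difference were joined into runs, and the longest, at chr6:169140001-169860000 (720 kb), had a mean PC1 of 0.48 in DKO1 and -1.31 in HCT116. It was separated by 1 bin from the next, at chr6:168500001-169120000 (620 kb), with 0.82 in DKO1 and -1.17 in HCT116, the largest difference of any run of at least 200 kb (1.99, and from 1.11 to 2.81 over its bins). The run at chr6:167500001-167980000 (480 kb) had means of 0.70 in DKO1 and -0.36 in HCT116. In steps of 1 Mb, from 169 to 170 Mb 43 of 50 bins were A in DKO1 and 0 of 50 in HCT116. From 168 to 169 Mb 50 of 50 were A in DKO1 and 18 in HCT116. The last stretch, from 170 Mb, was A in most bins of each line, with 48 of 48 in DKO1 and 43 in HCT116.

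**Figure D4:**
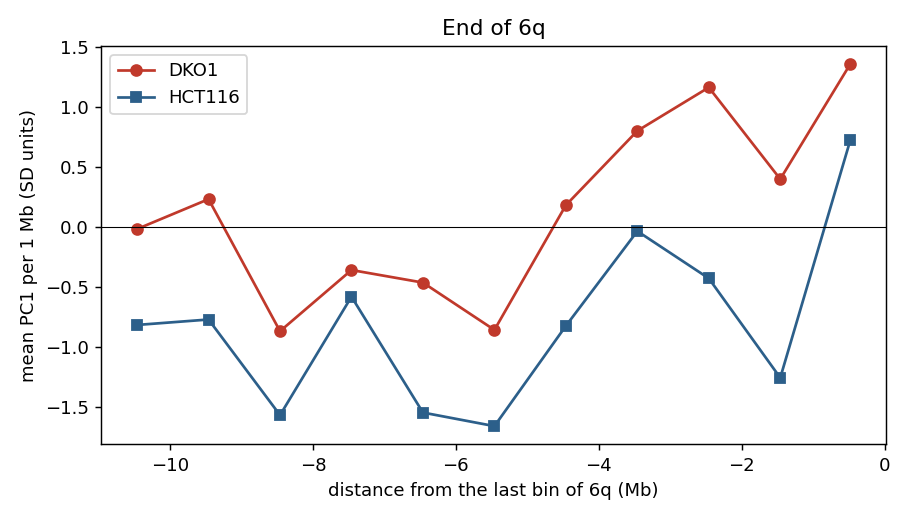
Mean PC1 (SD units) per 1 Mb of DKO1 (circles) and HCT116 (squares) over the end of 6q, by distance in Mb from its last bin. DKO1 is above HCT116 at every step, and the gap is widest between 1 and 3 Mb from the end, where DKO1 is positive and HCT116 negative.

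Bins that were A in DKO1 only were dense at the end of 6q. From 160 to 165 Mb 16.8% of bins were A in DKO1 only, and from 165 to 170 Mb 45.8%, against 8.49% of the chromosome. The last 10 Mb, with at most 50 of the 8376 bins per Mb, held 148 of the 711 bins that were A in DKO1 only. Of the 682 that were A in HCT116 only they held 3. Of scores at least 0.5 in size in DKO1 and in HCT116, they held 52 of the 98 that were A in DKO1 only. How many bins with such scores lie in this stretch is not given here. Without the last 10 Mb the chromosome had less A in DKO1 than in HCT116, with a difference of -1.47 percentage points in place of 0.35. Then 7.15% of bins were A in DKO1 only. Without 2 Mb at the centromere and at each end the difference was -1.10. After the 10 Mb running mean was subtracted, the runs at 169140001 and 168500001 kept differences of 0.71 and 0.93, and the one at 167500001 had 0.09.

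Runs of at least 200 kb numbered 15 that were A in DKO1 only, of which 9 lay on 6p, and 17 that were A in HCT116 only, of which 16 lay on 6q. They held 3.10% of the bins of chromosome 6 in the first direction, against 1.31% on the other autosomes, and 3.30% in the second, against 4.56%. Of all bins that were A in DKO1 only, 59.4% lay in runs that touched a bin in A in HCT116. Of those A in HCT116 only, 64.5% lay in runs that touched a bin in B in HCT116. Such shares, here and by arm, were not computed for the other autosomes, so they are a description of chromosome 6 only. Most runs were short, with a median of 60 kb among the 160 runs A in DKO1 only and 40 kb among the 151 A in HCT116 only.

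On 6p, 55.1% of the bins that were A in DKO1 only lay in runs that touched an A bin of HCT116, and 44.9% lay in runs that touched none. The longest run of the arm, at chr6:38700001-39120000 (420 kb), had a mean PC1 of 0.87 in DKO1 and -0.65 in HCT116, and lay between A bins on both sides. The longest A interval of the arm ran from 32780001 to 39380000 in DKO1 (6.6 Mb) and from 32680001 to 38700000 in HCT116 (6.02 Mb), so this run lay at its outer end. Around it, from 39 to 40 Mb, 33 of 50 bins were A in DKO1 and 7 in HCT116. The run at chr6:51780001-52120000 (340 kb) had means of 0.89 in DKO1 and -0.83 in HCT116, and touched A bins on 1 side, where from 52 to 53 Mb 50 of 50 bins were A in DKO1 and 44 in HCT116. On the other side, from 50 to 51 Mb, 10 bins were A in DKO1 and 0 in HCT116.

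Runs that were A in HCT116 only clustered between 127 and 130 Mb of 6q. The longest, at chr6:128020001-128720000 (700 kb), had a mean PC1 of -0.41 in DKO1 and 0.70 in HCT116. Its neighbours at chr6:127780001-128000000 and chr6:129020001-129480000 had -0.37 and -0.60 in DKO1 against 0.69 and 0.39 in HCT116. None of these 3 runs touched a B bin of HCT116. From 128 to 129 Mb 15 of 50 bins were A in DKO1 and 50 of 50 in HCT116, and from 129 to 130 Mb 19 were A in DKO1 and again all in HCT116. Just outside, from 125 to 126 Mb, the difference was turned, with a mean of 0.27 in DKO1 and -0.63 in HCT116. From 132 to 133 Mb it was turned as well, at 0.57 in DKO1 and 0.22 in HCT116, and the run at chr6:132640001-133020000 (380 kb) was A in DKO1 only with means of 0.47 in DKO1 and -0.42 in HCT116. The region thus held differences in both directions within a few megabases, which the running mean of 10 Mb left in place (-1.01 at 128020001 and 1.19 at 132640001).

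The other runs named for A in HCT116 only lay apart. At chr6:80340001-80760000 (420 kb) mean PC1 was -0.33 in DKO1 and 0.42 in HCT116. At chr6:148400001-148800000 (400 kb) it was -0.32 in DKO1 and 0.67 in HCT116. The run at chr6:91400001-91600000 (200 kb) had one of the 3 largest differences among runs of at least 200 kb in this direction, with -0.99 in DKO1 and 0.21 in HCT116, and lay between B bins on both sides, where a short A interval of HCT116 was B in DKO1. On 6p, where only 1 run of this kind reached 200 kb, it was found at chr6:31520001-31920000 (400 kb), with means of -0.32 in DKO1 and 0.39 in HCT116. At 80340001 and 31520001 the differences were -0.22 and -0.36 after the running mean was subtracted.

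That last run lies in the stretch from 25 to 35 Mb, which holds the histone gene cluster and the major histocompatibility region and has the densest domains of the chromosome. From 25 to 30 Mb the lines were nearly equal, with a mean PC1 of 0.63 in DKO1 and 0.65 in HCT116 and 91.6% of bins in A in DKO1 and 87.6% in HCT116. From 30 to 35 Mb mean PC1 was 0.40 in DKO1 and 0.91 in HCT116, with 82.4% of bins in A in DKO1 and 95.9% in HCT116, and none of its bins was A in DKO1 only. Between 31 and 32 Mb 26 of 50 bins were A in DKO1 and 46 in HCT116. The next window, from 35 to 40 Mb, was higher in DKO1, at 0.83 against 0.66.

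DKO1 had fewer domains than HCT116 on chromosome 6, at the same median length of 280 kb. The 84 DKO1 domains were 37.5% of the 224 HCT116 domains, where the other autosomes ranged from 24.3% on chromosome 13 to 56.7% on chromosome 19 with a median of 42.5%. They covered 25.48 Mb in DKO1 and 71.48 Mb in HCT116. Of the DKO1 domains 83.3% (95% Wilson interval 73.9 to 89.8) had an HCT116 domain at a reciprocal overlap of at least 80%, against 84% on the other autosomes. Of the HCT116 domains 31.3% (25.5 to 37.6) had one in DKO1, against 36.1% elsewhere. Of the 154 HCT116 domains without a match, 140 (90.9%) had under 20% of their length in DKO1 domains, against 87.5% elsewhere. For most of them DKO1 thus listed little or no domain in place of a redrawn one, as on the other autosomes. The Wilson intervals here and below cover counting error only and take domains as independent. The depth of the maps is unknown, and its part in the number of domains cannot be told apart from the difference between the lines.

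The shortfall of domains in DKO1 was unequal between the arms. On 6p there were 53 domains in DKO1 and 110 in HCT116 (48.2%), and on 6q 31 in DKO1 and 114 in HCT116 (27.2%). The arms of HCT116 thus had nearly equal numbers, although 6q is much the longer. Between arms the percentages differed by 20.99 points on chromosome 6, and 2 of the other 16 non-acrocentric autosomes had a wider difference, chromosome 4 in the same direction (26.1 points) and chromosome 9 in the opposite one (-24.6). Without the windows from 25 to 35 Mb, 6p had 31 domains in DKO1 and 78 in HCT116 (39.7%). The deposited lists also hold 1 HCT116 entry of 3.72 Mb, at chr6:58520001-62240000, which spans the centromere gap and was counted on 6q.

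**Figure D5:**
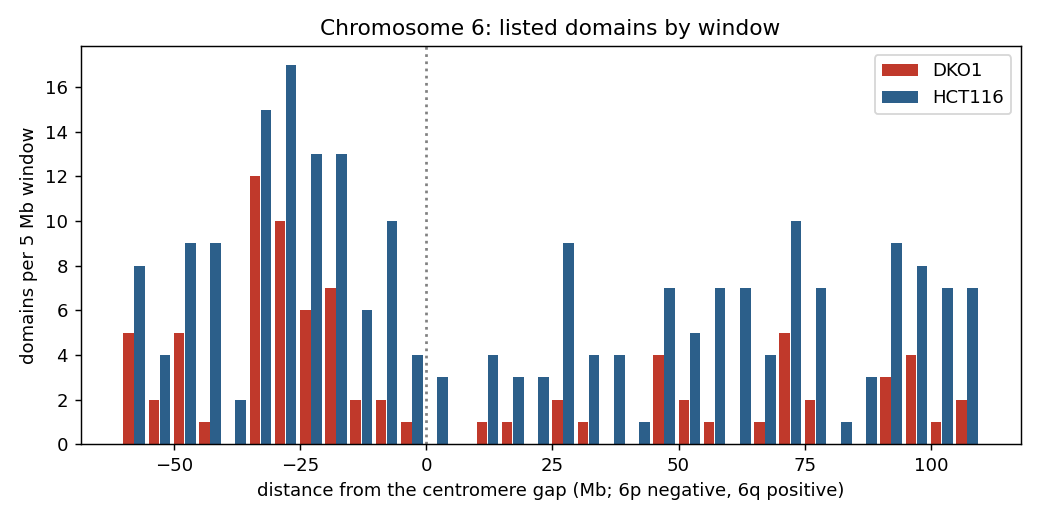
Number of listed domains per 5 Mb window in DKO1 (red, left bar of each pair) and HCT116 (blue, right bar) along chromosome 6, by distance in Mb from the centromere gap. DKO1 bars are highest in the windows that hold the histone cluster and the major histocompatibility region, and long parts of 6q have no DKO1 domain.

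Domains in compartment A had a DKO1 counterpart more often than those in B, as on the other autosomes. Of the HCT116 domains in A, 58 of 143 (40.6%) were matched in DKO1, against 45.1% elsewhere. Of those in B, 12 of 81 (14.8%) were matched, against 17.1% elsewhere. By arm, 38 of 78 domains in A were matched on 6p (48.7%, interval 37.9 to 59.6) and 20 of 65 on 6q (30.8%, 20.9 to 42.8), so these intervals overlap. On the other non-acrocentric autosomes the p arms reached 46.4% and the q arms 44.5%. The A domains of the arms had similar PC1, with medians of 0.86 in DKO1 and 0.97 in HCT116 on 6p and of 0.84 in DKO1 and 0.91 in HCT116 on 6q. Within classes of HCT116 PC1 the matched share was higher on 6p each time: 6 of 16 on 6p and 2 of 14 on 6q up to 0.5, 12 of 25 and 7 of 23 from 0.5 to 1, and 20 of 37 and 11 of 28 above 1. These classes are small, and in each of them the 95% intervals of the arms overlap.

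Of the 224 HCT116 domains, 28 were A in DKO1 only and 12 were A in HCT116 only, where 8.49% and 8.14% of bins were. The 28 HCT116 domains that were A in DKO1 only were matched in 5 cases (17.9%, 7.88 to 35.6), and the 12 that were A in HCT116 only in 1 case (8.33%, 1.49 to 35.4). The 53 domains in B in DKO1 and HCT116 alike were matched in 7 cases (13.2%), and the 131 that were A in both in 57 (43.5%). The intervals of the small classes are wide and overlap those of the others. Of the 15 long runs that were A in DKO1 only, 13 were touched by no DKO1 domain, as were 15 of the 17 that were A in HCT116 only. No HCT116 domain touched 4 of the 15 and 11 of the 17. Domains covered 25.48 Mb of the chromosome in DKO1 and 71.48 Mb in HCT116. The share of untouched stretches among all stretches of such length was not computed, so the counts describe no trait of these runs. The runs at 168500001 and 169140001 were touched by 2 and 3 HCT116 domains and by 0 in DKO1.

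Domains per 10 Mb of compartment were lowest in B of 6q. There were 0.48 in DKO1 and 8.42 in HCT116 per 10 Mb of B on 6q, and 4.86 in DKO1 and 12.5 in HCT116 on 6p. The DKO1 values in B rest on few entries, 3 domains in 62.64 Mb on 6q and 10 in 20.58 Mb on 6p. In A the densities were 6.05 in DKO1 and 12.8 in HCT116 on 6q, and 11.3 in DKO1 and 23.7 in HCT116 on 6p. Each density uses the compartments of its own line, and none was computed for the other autosomes. The number of domains per window followed mean PC1 more closely by rank in DKO1 (Spearman rho 0.86, Pearson r 0.64) than in HCT116 (0.44 and 0.53) over the 34 windows, which share their maps and have no p-value here.

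In DKO1 a larger percentage of domains was listed from 25 to 35 Mb than on the rest of the chromosome. It held 22 domains in DKO1 and 32 in HCT116 (68.8%), against 62 in DKO1 and 192 in HCT116 (32.3%) on the rest. The window from 25 to 30 Mb had 12 in DKO1 and 15 in HCT116 (80%), and 8 of 166 windows of the other autosomes with at least 10 HCT116 domains had a higher percentage. The window from 30 to 35 Mb had 10 in DKO1 and 17 in HCT116 (58.8%, with 56 of the 166 higher), although its PC1 was lower in DKO1. The window from 35 to 40 Mb, among the 3 with the most HCT116 domains, had 6 in DKO1 and 13 in HCT116. Of the HCT116 domains from 25 to 35 Mb, 53.1% (36.4 to 69.1) were matched, and of those on the rest of the chromosome 27.6% (21.8 to 34.3). The rest includes 6q and most of the domains in B, which were matched less often. Of the HCT116 domains in A on 6p outside the stretch, 22 of 48 (45.8%) were matched. On the other autosomes 45.1% of those in A were matched.

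Some parts of 6q had no DKO1 domain over many megabases. The longest stretch without one, from 56480001 to 74160000 (17.68 Mb), spans the centromere. The next were from 90360001 to 105520000 (15.16 Mb), which held 7 whole HCT116 domains, and from 138320001 to 150400000 (12.08 Mb), which also held 7. The longest in HCT116 was 6.88 Mb, from 64520001 to 71400000, and held most of the long B interval. DKO1 had 7 such stretches of at least 5 Mb and HCT116 had 2. The HCT116 count rests on the entry of 3.72 Mb across the centromere gap. It is the only HCT116 entry from 58520001 to 64000000. The DKO1 stretches were not all of low PC1. From 138320001 to 150400000 the mean was 0.14 in DKO1 and 0.27 in HCT116, while from 90360001 to 105520000 it was -0.88 in DKO1 and -0.18 in HCT116. The windows with the fewest HCT116 domains were those from 65 to 70 Mb (0 in each line), from 100 to 105 Mb (0 in DKO1 and 1 in HCT116) and from 140 to 145 Mb (0 in DKO1 and 1 in HCT116). Stretches without a domain were not measured on the other autosomes. Of windows of 5 Mb, 9 of 34 on chromosome 6 (26.5%) held no DKO1 domain, against 21.5% of the 507 elsewhere. No HCT116 domain lay in 2.94% of windows on chromosome 6 and in 3.35% elsewhere.

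Most DKO1 boundaries were also listed in HCT116, on either arm. Within 40 kb, 129 of 142 DKO1 boundaries were found in HCT116 (90.8%, 85.0 to 94.6), against 92.5% on the other autosomes, with 90.8% on 6p and 90.9% on 6q. Of the 330 HCT116 boundaries 39.1% (34.0 to 44.5) were found in DKO1, against 45.5% elsewhere, with 52.3% (44.4 to 60.1) on 6p and 27.9% (21.9 to 34.9) on 6q. Boundaries are the ends of the same domains, so this difference between the arms repeats the one in domain numbers. HCT116 boundaries found in DKO1 had a median PC1 of 0.85 in DKO1 and 0.89 in HCT116, and those not found had 0.22 in DKO1 and 0.04 in HCT116. Of the 13 DKO1 boundaries not found in HCT116, 4 lay between 25 and 35 Mb, at positions 26160000, 26880000, 31840000 and 32680000, where 32 of the 142 DKO1 boundaries lay. The one at 31840000 lies inside the run at 31520001 that was A in HCT116 only, which 2 DKO1 domains and 1 HCT116 domain touched.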

How the data were processed

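Hi-C libraries were made with a commercial kit after formaldehyde cross-linking, per the labels' protocols. HiC-Pro, HOMER 4.6 and hg19 (GRCh37) are named, without their roles, per the submitters' processing notes. The authors deposited, per cell line, a PC1 score per 20 kb bin, which has a mean of 0 and an SD of 1 within each autosome, and a list of domains on a 40 kb grid without values. The domain caller is not given in the sources used here. The files used hold no counts, so their depth is unknown.

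Tracks were joined by chromosome and start. Runs, 5 Mb windows with at least 100 bins, boundaries (tolerance 40 kb) and domain matches (reciprocal overlap of 80%) were computed with Python 3.11.15, numpy 2.4.6, pandas 2.3.3 and scipy 1.17.1, and the functions were tested on simulated data. Domains were placed by midpoint, and their PC1 is the mean over their bins. With 1 pooled map per line no test was made. The chromosome, the windows and the comparisons were chosen with earlier results of these data known. The regions named are the 5 windows whose share of differing bins was highest, the 5 where it was lowest, the 3 with the largest increase and the 3 with the largest decrease in PC1, the 3 with the most and the 3 with the fewest HCT116 domains, those from 25 to 35 Mb, and per direction the 5 longest runs and, above a length of 200 kb, the 3 of largest change. Stretches described by 1 Mb, the ends of arms and the parts without domains were added after the values were seen. No gene table on hg19 was used, so regions carry no genes, and the contents of the stretch from 25 to 35 Mb are background knowledge.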

Additional observations from a re-analysis of the deposited data

How the results depend on the processing

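No replicate could be left out, and the unknown depth of the maps limits what the domain numbers can show. No paired analysis was possible because each line has 1 pooled map. The running mean in compartment shares, the removal of the last 10 Mb of 6q or of 25 to 35 Mb, and the alternatives by arm for domains were chosen after seeing the data. The difference in the share of A on chromosome 6 (0.35 percentage points) was 1.61 with an absolute PC1 of at least 0.5 in both lines, -1.10 without 2 Mb at the centromere and ends, and -1.47 without the last 10 Mb of 6q, so its sign is not settled. The share A in HCT116 only (8.14%) was 0.58% with the PC1 minimum and 8.93% with the running mean, and the share A in DKO1 only (8.49%) was 2.19%, and 7.04% with the running mean, 7.45% without centromere and ends and 7.15% without the end of 6q. On 6p the difference (8.57) was 2.23 with the minimum, 6.74 without centromere and ends, and -2.53 with the arm mean subtracted. On 6q (-4.08) it was 1.28 with the minimum, -7.42 without the end of 6q, and -0.055 with the arm mean subtracted. The correlation (0.76) was 0.77 with 5-bin means, as Spearman's rho and without centromere and ends, 0.81 with the running mean and 0.78 without the end of 6q. At tolerance 0, 29.7% of HCT116 and 69.0% of DKO1 boundaries were found. At an overlap of 90%, 20.98% of HCT116 and 56.0% of DKO1 domains were matched, and 34.6% and 18.5% of the A domains of 6p and 6q. At 50%, 96.4% of DKO1 domains were matched. Domain numbers stayed within 1.5 times under the removal of long or overlapping entries and of 25 to 35 Mb. All 13 named runs kept their direction under the running mean, which reduced 6 of them by over 1.5 times. Median subtraction moved every difference by the same small amount, so it could not turn the direction of these runs. On a grid moved by 2.5 Mb, the windows at 125 (to 0.31), 80 (to 0.16), 130 (to 0.085), 5 (to -0.085), 90 (to 0.10), 25 (to 0.16), 35 (to -0.44) and 140 Mb (to -0.036 and -0.032) had the opposite sign.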
